A study of Mus musculus with 8 samples.

Results

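The transcripts described here encode receptors with which hematopoietic stem cells hold on to, and move through, their bone marrow niche. They are 10 genes chosen by name out of 52224 in the table: the integrin chains Itga4, Itga5, Itga6, Itgal, Itgb1 and Itgb2, the hyaluronan receptor gene Cd44, the selectin ligand gene Selplg, and the chemokine receptor genes Cxcr4 and Cxcr2. The cells were mouse bone marrow hematopoietic stem cells, sorted as CD48-negative, CD150-positive LSK cells (lineage-negative, Sca-1-positive and Kit-positive). There were 4 libraries from DekTg mice and 4 from DekCon mice. These are genotype names; the sources used here do not state the promoter or allele behind DekTg, the strain, the age or any pooling of mice. Values are normalized read counts, that is, reads per gene divided by a size factor for each library, with no correction for gene length.

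An integrin is a pair of an alpha and a beta chain that spans the membrane and binds matrix or the surface of a neighbouring cell. In the marrow, the pair α4β1 binds VCAM1 and fibronectin, α5β1 binds fibronectin, α6β1 binds laminins, and αLβ2 binds the ICAM proteins. CXCR4 responds to CXCL12 made by niche cells and keeps stem cells in the marrow. CXCR2 responds to chemokines such as CXCL1 and CXCL2, is best known for calling neutrophils out of the marrow, and has been reported as a receptor for DEK released from cells.

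The start sites of the 2 chemokine receptor genes are shown because these receptors lay close together in level, as described further on, while the bases before their start sites are unlike. Both genes are on chromosome 1. The windows are RefSeq promoters on GRCm38.p6, from 250 bases before to 50 bases after the start, written 5′ to 3′ on the gene's strand. Capitals mark matches on either strand to the GC box (GGGCGG), the TATA box (TATAAA) or the CCAAT box (CCAAT). The Cxcr4 window is chr1:128592250-128592549 on the minus strand, and the Cxcr2 window is chr1:74153744-74154043 on the plus strand.
Cxcr4: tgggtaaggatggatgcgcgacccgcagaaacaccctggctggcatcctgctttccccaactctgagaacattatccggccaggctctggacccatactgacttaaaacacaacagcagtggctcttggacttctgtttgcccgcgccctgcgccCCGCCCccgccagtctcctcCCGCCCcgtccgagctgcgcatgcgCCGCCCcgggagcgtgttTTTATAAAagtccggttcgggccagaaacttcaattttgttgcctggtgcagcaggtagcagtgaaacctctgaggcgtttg
Cxcr2: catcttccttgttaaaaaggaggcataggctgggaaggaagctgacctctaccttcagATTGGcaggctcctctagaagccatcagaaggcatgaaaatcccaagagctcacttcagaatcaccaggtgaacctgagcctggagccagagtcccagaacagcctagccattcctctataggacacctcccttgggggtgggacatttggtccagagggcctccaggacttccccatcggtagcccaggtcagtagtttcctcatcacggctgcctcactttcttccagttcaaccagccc

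The Cxcr4 window held 3 GC boxes, 20 CpG pairs and 2 overlapping TATA matches that share bases on opposite strands. The Cxcr2 window held no GC box and no TATA match, 1 CCAAT match and 2 CpG pairs. Over all 32851 promoters of the same length, 35.7% held a GC box, 13.6% a TATA match and 37.4% a CCAAT match, and the median was 7 CpG pairs. Of the 10 genes, 6 had a promoter in the table. Itgb1 held 27 CpG pairs, Itga5 13, Itga4 10 and Cd44 6, each with at least 1 GC box. The GATA motif, spelled AGATAA and searched on both strands, occurred in 1 of the 6 windows, that of Cd44, and in 11.2% of all promoters. These matches describe letters in a window and say nothing of what binds there.

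The libraries held 2642858 to 3591212 reads in DekTg and 2525884 to 4101132 in DekCon. The mitochondrial share of reads was 3.25 to 3.66% in DekTg and 2.69 to 3.34% in DekCon. Libraries 1 and 4 of each group resembled each other more than any other pair in their group. Their log2 values correlated at 0.978 in both groups over 11809 genes, and their reads differed by 1.67 times counting noise in DekTg and 1.58 times in DekCon (chi-square per degree of freedom), against 3.62 to 7.83 times for the other pairs within a group. They differed by more than counting noise and are kept as separate libraries, and values with each pair averaged are given where they matter. The labels do not say that libraries came from separate mice, so p-values measure the spread between these libraries, which may be technical. Dek was listed higher in DekTg, at 2392 ± 403 against 511 ± 100.1 in DekCon (SD, n = 4 each), but none of its 4 DekTg values is a whole number of reads, so the size of that difference cannot be taken as measured. All 80 values of the 10 genes are whole numbers of reads. The sort markers were present: Kit was at 1181 to 1557 in the DekTg libraries and 1072 to 1396 in the DekCon libraries. Cd48, which the sort selects against, was also present, at 174 to 230 in DekTg and 128 to 259 in DekCon, and Cd3e, a T cell gene, at 109 to 142 in DekTg and 98.9 to 132 in DekCon. The 6 genes of this kind in the table summed to 1531 to 1837 in DekTg and 1232 to 1732 in DekCon, most of it Ptprc, which stem cells also express. Other T cell genes were far below Cd3e. Cd3d was at 0 to 3.15 in DekTg and 0.772 to 3.83 in DekCon, and Trbc2 at 1.05 to 3.60 and 0.957 to 8.49. Cd3g reached 26.4, Cd4 22.8 and Cd8a 19.2 at most, each in DekTg. Nkg7, a gene of NK and T cells, was higher, at 296 to 452 in DekTg and 385 to 794 in DekCon. Markers of B lymphoid cells summed to 4677 to 5508 in DekTg and 617 to 1405 in DekCon, with 0 of 11 at 0 in any library; Igkc and Jchain passed the test across all genes. Without these and Ighm, which did not pass, the other 8 summed to 477 to 563 in DekTg and 454 to 507 in DekCon, and Igll1 had a log2 fold change of -0.35 (limma adjusted p = 0.711). The 10 erythroid markers summed to 634 to 959.7 in DekTg and 216 to 1606 in DekCon, and the globin genes Hba-a1, Hba-a2 and Hbb-bs passed, each higher in DekTg; Hba-a1 and Hba-a2 are near-identical copies whose reads may be split between them. Other members went both ways without passing. Log2 fold changes were -1.06 for Epor (limma adjusted p = 0.711), -0.89 for Klf1 (0.727) and 1.13 for Slc4a1 (0.711). The part of B lymphoid or erythroid RNA in the values below was not tested.

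None of the 10 transcripts differed between DekTg and DekCon past the threshold. By limma on log2(normalized read count + 1), with p-values adjusted by Benjamini-Hochberg across the 37414 genes tested and called under 0.05, 0 of 10 passed, where 0.0347% of all genes tested did. EdgeR and DESeq2 on the recovered reads also called 0, and DESeq2 gave an adjusted p for 5 of the 10. At an unadjusted p under 0.05 there was 1 of 10, Itga6, where 6.93% of all genes tested reached that level. Groups did not overlap for the same 1 gene of 10, against 3.97% of all genes tested. Of the 10 log2 fold changes (DekTg minus DekCon), 7 lay below 0 and 3 above 0, with a median of -0.07, against 0.0057 over all genes tested. This split depended on the scaling, since 6 lay above 0 with quantile normalization (median 0.025) and 5 with scaling to total reads (median 0.018, against 0.083 over all genes tested). Without DekTg library 2 the median was -0.19. In these bulk libraries, fewer cells of a type and less RNA per cell cannot be told apart.

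**Figure D1:**
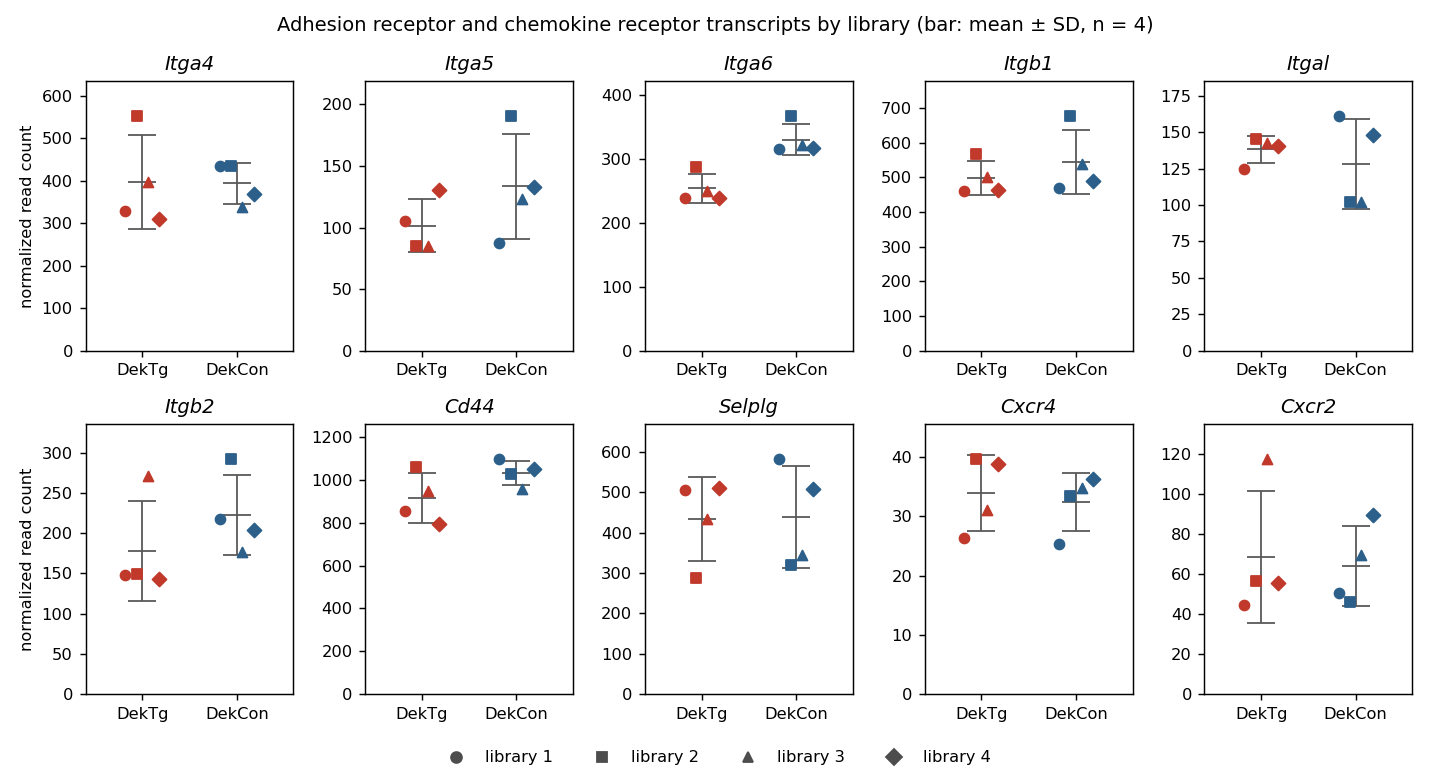
Normalized read count of each of the 10 transcripts (vertical axes, from 0) in 4 DekTg and 4 DekCon libraries; symbols give the library number and bars the mean ± SD (n = 4). Itga6 is the one panel in which all DekTg points, at most 287, lie below all DekCon points, at least 316.

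Among the α chains that pair with β1, the laminin receptor chain Itga6 was the one whose groups did not overlap. Itga6 had 239, 287, 250.4 and 239 normalized reads in DekTg libraries 1 to 4, against 316, 367, 321 and 316 in DekCon libraries 1 to 4. The highest DekTg library lay below the lowest DekCon library. The mean was 254 ± 22.7 in DekTg and 330.0 ± 24.5 in DekCon (SD, n = 4 each), so the DekTg mean was 0.770 times the DekCon mean. On the log2 scale the difference was -0.38 (SE 0.12, 95% interval -0.64 to -0.12). Its unadjusted p was 0.0066 and its limma adjusted p 0.711, so it did not pass over all genes tested. Of all genes tested, 1.88% had every DekTg library below every DekCon library. In both groups libraries 1 and 4 gave nearly the same Itga6 value, and with each such pair averaged the log2 fold change was -0.37 (limma adjusted p = 0.896). Itga6 lies on chromosome 2 from 71745616 to 71858416 on the plus strand (GENCODE M21, GRCm38) and shares no exon base with the other genes annotated inside it.

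The α4 chain Itga4, part of the receptor for VCAM1, was at nearly the same mean in both groups. It had 328, 551, 396 and 311 normalized reads in DekTg, against 435, 434, 338 and 367 in DekCon. The DekTg libraries enclosed the DekCon range, with library 2 highest of all 8. The mean was 397 ± 109.6 in DekTg and 394 ± 48.7 in DekCon (SD, n = 4 each; log2 fold change -0.019, SE 0.17, 95% interval -0.37 to 0.33, limma adjusted p = 0.987). Its direction turned in 10 of 24 other settings, among them scaling to total reads (0.066) and edgeR (0.014). Itga4 shares 1124 exon bases with Cerkl on the other strand, and the sources used here do not state whether the counting used strand. Cerkl itself averaged 66.9 ± 6.35 in DekTg and 70.1 ± 16.3 in DekCon.

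The fibronectin receptor chain Itga5 had 105, 85.3, 85.4 and 130.2 normalized reads in DekTg, against 87.5, 190.4, 123 and 133 in DekCon. The groups overlapped, since DekCon libraries 1 and 3 lay among the DekTg values. Itga5 had a log2 fold change of -0.36 (SE 0.21, 95% interval -0.80 to 0.08, limma adjusted p = 0.756), and without DekCon library 2, the highest, it was -0.17, and without DekCon library 1 it was -0.54. The common partner chain Itgb1 had 462, 568, 501 and 464 in DekTg, against 470.3, 677, 539 and 490.1 in DekCon. Its groups overlapped, and library 2 was the highest in each. For Itgb1 the log2 fold change was -0.12 (SE 0.13, 95% interval -0.40 to 0.17, limma adjusted p = 0.872); it turned to 0.036 with quantile normalization and was -0.0062 without DekCon library 2 and -0.18 without DekTg library 2 or DekCon library 1.

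A ratio of 2 chains within a library does not change when each library is divided by 1 factor. Quantile normalization is not a scaling of that kind and can change it. Per kb of exon, Itga6 over Itgb1 was 0.234, 0.228, 0.226 and 0.233 in DekTg, against 0.303, 0.245, 0.270 and 0.292 in DekCon. The 4 DekTg ratios lay within a narrow band, below all 4 DekCon ratios. The ratio of Itga4 to Itgb1 was 0.196 to 0.283 in DekTg, against 0.183 to 0.270 in DekCon, and that of Itga5 to Itgb1 was 0.124 to 0.232 in DekTg, against 0.154 to 0.233 in DekCon. Both overlapped almost fully. Of the summed level per kb of the 3 α chains, Itga6 held 36.5 ± 1.14% in DekTg and 40.1 ± 2.38% in DekCon, Itga4 36.4 ± 6.58% in DekTg and 30.9 ± 4.20% in DekCon, and Itga5 27.1 ± 6.89% in DekTg and 29.0 ± 5.77% in DekCon (SD, n = 4 each). Unlike its ratio to Itgb1, the Itga6 share overlapped between groups, at 35.3 to 37.8% in DekTg and 36.8 to 42.0% in DekCon. These ratios and shares are descriptions, with no test.

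The leukocyte integrin αLβ2 is encoded by Itgal and Itgb2. Itgal had 124, 145, 143 and 141 normalized reads in DekTg, against 161, 102, 102 and 148 in DekCon. The DekTg libraries lay inside the DekCon range (log2 fold change 0.14, SE 0.17, 95% interval -0.22 to 0.49, limma adjusted p = 0.884). Its size rested on single libraries, at 0.035 without DekCon library 3, 0.038 without DekCon library 2, 0.21 without DekCon library 4 and 0.25 without DekCon library 1, and at 0.26 with libraries 1 and 4 averaged. Itgb2 had 148, 149, 271 and 143 in DekTg, against 218, 292, 176 and 204 in DekCon. DekTg libraries 1, 2 and 4 lay below every DekCon library, and DekTg library 3 lay above 3 of the 4. Itgb2 had a log2 fold change of -0.35 (SE 0.20, 95% interval -0.78 to 0.07, limma adjusted p = 0.751), and it was -0.58 without DekTg library 3 (limma adjusted p = 0.83) and -0.22 without DekCon library 2 (0.942).

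Other adhesion molecules complete the set. Cd44, the hyaluronan receptor, had the highest level of the 10 per kb of exon, as given further on. Its normalized reads were 854, 1063, 948 and 795 in DekTg, against 1097, 1029, 958 and 1050.4 in DekCon. The groups overlapped through DekTg library 2 (log2 fold change -0.18, SE 0.12, 95% interval -0.44 to 0.07, limma adjusted p = 0.786), and the value was -0.03 with quantile normalization and -0.12 without DekTg library 4. Selplg encodes PSGL-1, the ligand of the P-, E- and L-selectins. It had 506, 288, 433 and 510.3 in DekTg, against 582, 319.6, 346 and 508 in DekCon. In both groups libraries 1 and 4 were the highest and library 2 the lowest, so the spread within a group was wider than the difference between the groups (log2 fold change -0.0049, SE 0.20, 95% interval -0.43 to 0.42, limma adjusted p = 0.997). Its direction turned in 7 of 24 settings.

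The chemokine receptors had the lowest normalized read counts of the 10 genes, before any correction for length. Cxcr4 had 26.4, 39.6, 31.1 and 38.8 normalized reads in DekTg, against 25.4, 33.5, 34.9 and 36.3 in DekCon. The groups overlapped almost fully, and the counts behind them were small, 32 to 37 reads in DekTg and 20 to 47 in DekCon. Its log2 fold change was 0.056 (SE 0.22, 95% interval -0.41 to 0.52, limma adjusted p = 0.972), an interval of ratios from 0.753 to 1.44. No difference was detected. Those bounds are not adjusted for the number of genes tested, so they do not give the size of difference that would have passed. Among 11809 genes with a mean of at least 50, those whose log2 value ran most like that of Cxcr4 over the 8 libraries were Ercc8 (Pearson r = 0.975), E130311K13Rik (0.89) and Actr10 (0.888). These were picked as the highest of many, and libraries 1 and 4 may not be separate samples.

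Cxcr2 had 44.5, 56.5, 117 and 55.6 normalized reads in DekTg, against 50.7, 45.9, 69.7 and 89.5 in DekCon. DekTg library 3 was the highest of all 8. Cxcr2 had a log2 fold change of 0.044 (SE 0.27, 95% interval -0.53 to 0.61, limma adjusted p = 0.983), and without DekTg library 3 it was -0.25 (limma adjusted p = 0.886). An interval that wide holds a difference in either direction, and no difference was detected.

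**Figure D2:**
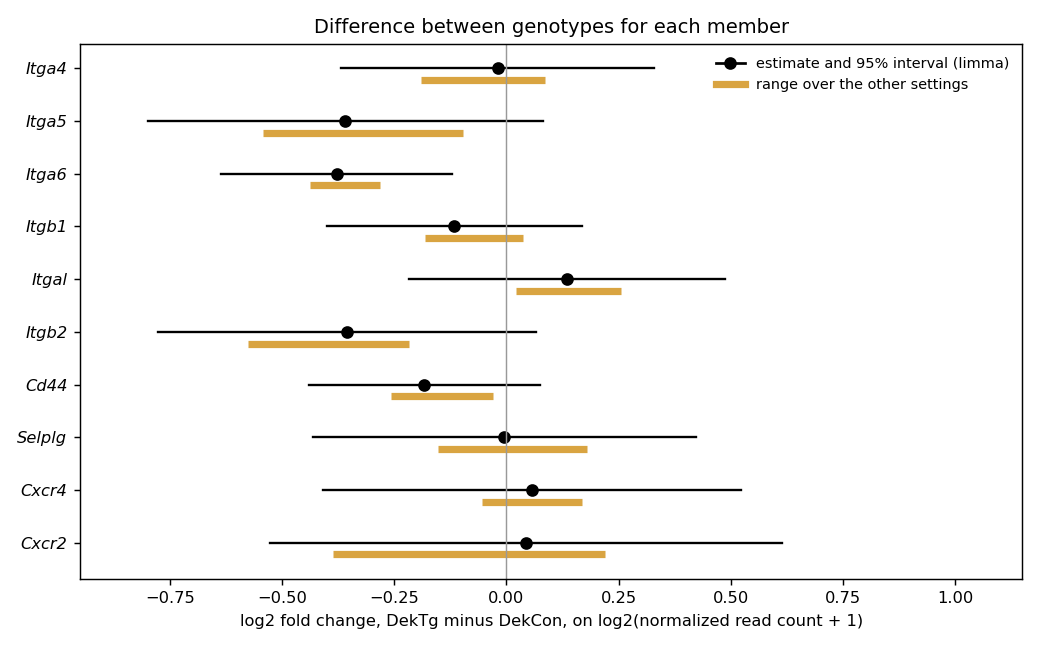
Log2 fold change of each transcript, DekTg minus DekCon, as estimate and 95% interval from limma (black), with the range over the 24 other settings (gold). The interval of Itga6, -0.64 to -0.12, is the one that does not cross 0; it is not adjusted for the number of genes tested.

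Genes of neutrophils moved with 2 of these transcripts in 1 library. In DekTg library 3, where Cxcr2 and Itgb2 were far above the other DekTg libraries, the 12 neutrophil markers summed to 18182, against 2435 to 5402 in the other DekTg libraries and 4453 to 11488 in DekCon. Of the 12, 8 were highest there, and none was at 0 in any library. Cxcr2, Itgb2 and Itgam, the chain that pairs with β2 on myeloid cells, are also neutrophil genes, and Itgam at 107 was highest in the same library. Split after their values were seen, those 8 summed to 13335 in DekTg library 3, against 325 to 1702 in the other DekTg libraries and 1166 to 2316 in DekCon, where library 2, with the lowest Cxcr2 of DekCon, was also lowest. The other 4 were the granule genes Mpo, Elane, Ctsg and Prtn3 of early myeloid cells. They summed to 2109 to 4847 in DekTg and 3037 to 10106 in DekCon. Their sum was highest in DekCon library 2, but Prtn3 was at 884 there and higher in DekCon library 3, at 948. In DekCon library 2, Itgb2, at 292, was the highest of all libraries, and Itgam, at 16.3, the lowest. Itgb2 did not follow these 4 genes throughout, since DekCon library 3 had a sum of 9172 with the lowest Itgb2 of DekCon, at 176. Cxcr2 did not follow the first 8 markers throughout. In DekTg libraries 2 and 4 these summed to 1702 and 325, while Cxcr2 was at 56.5 and 55.6. In DekCon their sum was highest in library 3 and Cxcr2 in library 4. The 10 monocyte and macrophage markers summed to 3183 in DekTg library 3, against 1362 to 1718 in the other DekTg libraries and 1267 to 2011 in DekCon, but 2 of the 10 were highest there. Lyz2, also a neutrophil gene, held 2073 of the 3183, and without it the sum was 1110 in DekTg library 3, against 1230 in DekCon library 3. The part of neutrophil or monocyte RNA in the Cxcr2 and Itgb2 values was not tested.

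Genes of megakaryocytes and platelets stood highest in DekCon library 2, where Itga5, Itga6, Itgb1 and Itgb2 were also highest among DekCon. The 8 markers summed to 11152 there, against 2493 to 4043 in DekTg and 3310.0 to 5863 in the other DekCon libraries. All 8 were highest in that library, and none was at 0 in any library. All 8 also had a log2 fold change below 0, from -1.13 for Gp5 to -0.61 for Gp1ba, and none passed across all genes. Their unadjusted limma p was under 0.05 except for Pf4 (0.095) and Ppbp (0.091), where 6.93% of all genes tested reached that level. For 2 of the 8 every DekTg library lay below every DekCon library, as for 1.88% of all genes tested. For these 2 it held also without DekCon library 2. Gp5 was at 99.7 to 163 in DekTg, against 171, 589, 285 and 178 in DekCon, and Itga2b is given further on. Neither passed. The α6 chain is also made by platelets. Without DekCon library 2 the log2 fold change of Itga6 was -0.33 (limma adjusted p = 0.93), and the other DekCon libraries, at 316, 321 and 316, still lay above all 4 DekTg libraries. The part of megakaryocyte or platelet RNA in the Itga6 value was not tested. Slamf1, which encodes the sort marker CD150, also did not overlap, at 190.0 to 213 in DekTg and 228 to 300.4 in DekCon (log2 fold change -0.40, limma adjusted p = 0.711). Without both DekTg library 3 and DekCon library 2, 0 of the 10 transcripts passed, and Itga6 had a log2 fold change of -0.32 (limma adjusted p = 0.958).

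**Figure D3:**
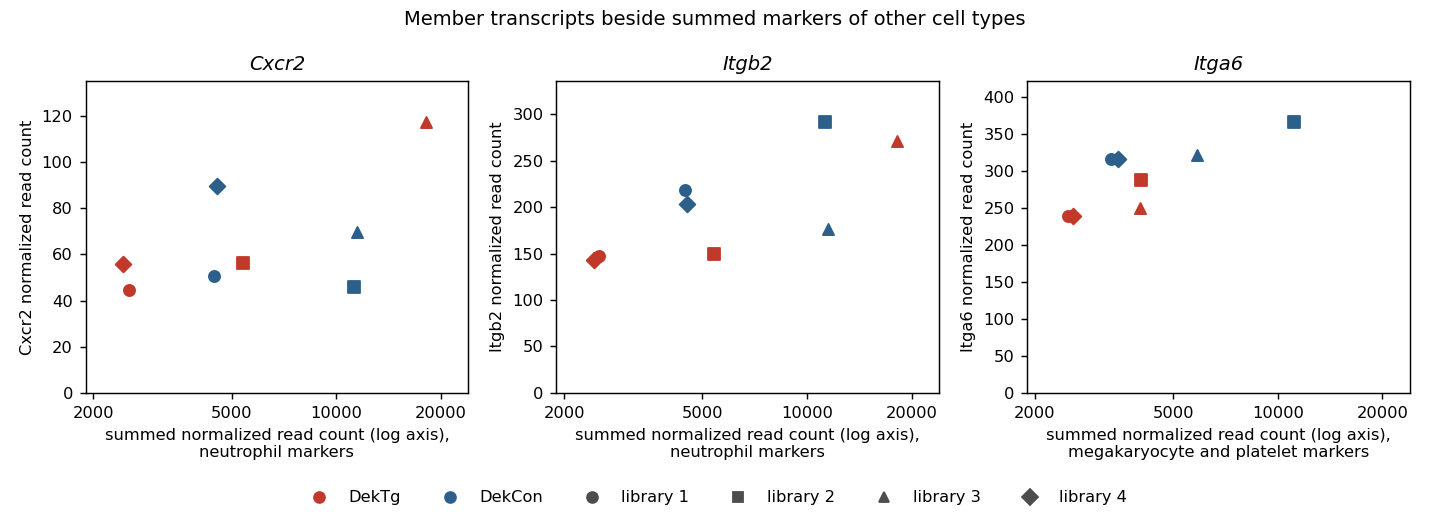
Normalized read count of Cxcr2, Itgb2 and Itga6 (vertical axes) against the summed normalized read count of 12 neutrophil or 8 megakaryocyte and platelet markers (log axes); colour gives the group and symbol the library number. DekTg library 3 stands at the far right for neutrophil markers with Cxcr2 at 117 and Itgb2 at 271, and DekCon library 2 at the far right for megakaryocyte markers with Itga6 at 367.

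Levels of different genes were compared per kb of exon, using all annotated exons of each gene in GENCODE M21. Over the 8 libraries Cd44 averaged 144 ± 15.7 normalized reads per kb, Itgb1 128 ± 17.9, Selplg 102 ± 25.1 and Itgb2 65.5 ± 18.8 (SD, n = 8). These were the upper group. Next came Itga6 at 32.4 ± 5.11, Itga4 at 28.3 ± 5.62, Itga5 at 23.8 ± 7.21, Cxcr2 at 21.7 ± 8.33, Itgal at 20.3 ± 3.31 and Cxcr4 at 18.4 ± 2.94 reads per kb. A gap free of overlap separated Itgb2, at least 46.8, from Itga6, at most 40.6. Other neighbours in this order overlapped: Itgb1 was below Cd44 in 7 of 8 libraries, Itga4 below Itga6 in 6 of 8, and Cxcr4 below Itgal in 5 of 8. Each β chain thus stood above each of its α partners measured here in all 8 libraries, with Itgal over Itgb2 at 0.163 to 0.458. The order depends on the exon length used, and Itga4, with 13978 exon bases, is the longest.

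**Figure D4:**
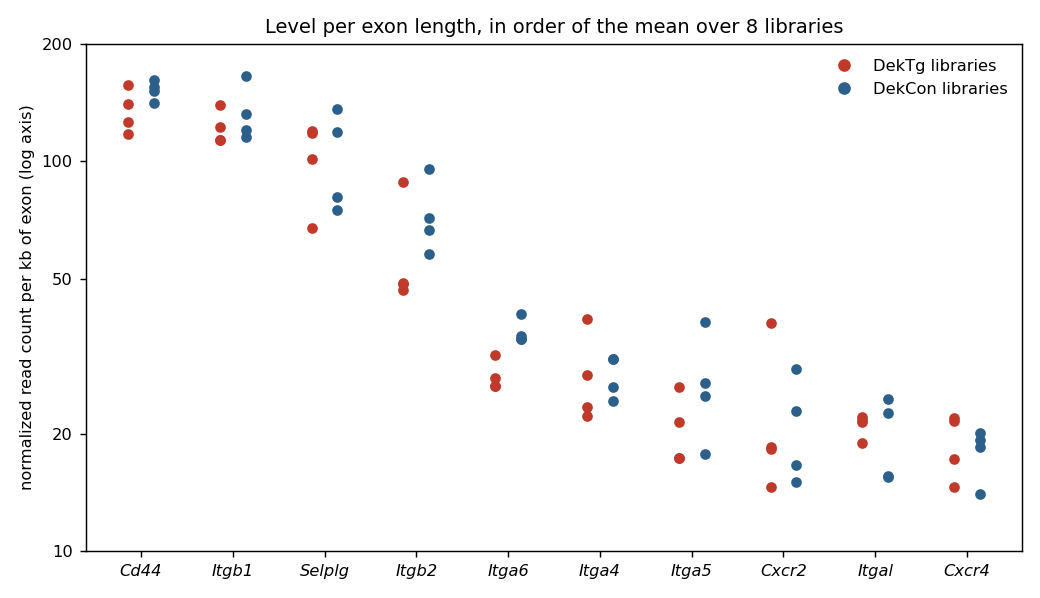
Normalized read count per kb of exon (log axis) for the 10 transcripts in order of their mean, with 4 DekTg libraries (red, left) and 4 DekCon libraries (blue, right) each. Cd44, Itgb1, Selplg and Itgb2 lie at 46.8 or above, and the other 6 at 40.6 or below.

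The other genes of these pathways were read from 7 lists, and none of their tested genes passed by limma or edgeR. DESeq2 called none either, but gave an adjusted p for few of them: 3 of 20 other integrin subunits, 10 of 24 activators and adaptors, 0 of 19 other chemokine receptors, 14 of 24 signalling genes, 1 of 11 selectin ligand genes, 4 of 23 ligands and 9 of 21 homing genes. Among 20 other integrin subunits, the median log2 fold change was 0.04 and 12 lay above 0. An unadjusted p under 0.05 was reached by 3 of the 20, against 6.93% of all genes tested. It was also reached by 4 of 24 activators and adaptors, 1 of 19 other chemokine receptors and 4 of 24 signalling genes. For selectin ligand genes it was 4 of 11, for ligands 1 of 23 and for homing genes 2 of 21. The platelet integrin chains Itga2b and Itgb3 were among the 3 integrin subunits. Itga2b, the gene with the highest normalized read count in the list, had 1080.5, 724, 1087 and 1137 in DekTg, against 1225, 3859, 1664 and 1240.3 in DekCon, with no overlap (log2 fold change -0.83, SE 0.27, limma adjusted p = 0.711; -0.46 without DekCon library 2). Itgb3 averaged 328 ± 69.4 in DekTg and 543 ± 239 in DekCon (-0.65, limma adjusted p = 0.711; -0.39 without DekCon library 2). Both are also markers of megakaryocytes, whose sum was highest in DekCon library 2. Of all genes tested, 1.88% lay lower in DekTg without overlap, as Itga2b did. Itga3 was near the limit of detection, at 7.21 to 10.5 in DekTg and 0 to 10.8 in DekCon, with 2 DekCon libraries at 0 (limma adjusted p = 0.711).

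The number above 0 among genes that switch integrins on depended on the scaling. Of 24 activators and adaptors, 4 lay above 0 and the median was -0.09, but 12 lay above 0 with scaling to total reads (median -0.0033) and 10 with quantile normalization (median -0.03). Scaling to total reads also moved the median over all genes tested, from 0.0057 to 0.083, so the list stayed below it. Fermt3, which encodes kindlin-3, a protein that binds β chain tails and is needed for integrin activation in blood cells, had 1256, 929, 1147 and 1468 in DekTg, against 1652, 2699, 1525 and 1632 in DekCon. Its groups did not overlap, and it had a log2 fold change of -0.62 (SE 0.18, limma adjusted p = 0.693; -0.44 without DekCon library 2). The small GTPase gene Rap1b averaged 558 ± 189 in DekTg and 899 ± 387 in DekCon (-0.66, limma adjusted p = 0.711; -0.40 without DekCon library 2), and the groups overlapped. Groups did not overlap for 3 of the 24, all lower in DekTg, against 1.88% of all genes tested; beside Fermt3 these were the talin gene Tln1 (-0.37) and the integrin-linked kinase gene Ilk (-0.27), named after their values were seen.

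Other chemokine receptors lay mostly above 0. Of 19 tested, 13 lay above 0 and the median was 0.12. Ccr1 averaged 58.4 ± 18.1 in DekTg and 38.5 ± 14.7 in DekCon (log2 fold change 0.62, SE 0.26, limma adjusted p = 0.711). Ccr3 had 64.3, 54.1, 67.9 and 68.2 in DekTg, against 50.7, 47.8, 52.8 and 47.1 in DekCon (0.35, limma adjusted p = 0.717). Ccr3 did not overlap between groups, where 2.09% of all genes tested were higher in DekTg without overlap. Ccr9, which had the highest normalized read count in the list, averaged 173 ± 25.7 in DekTg and 146 ± 10.8 in DekCon (0.24, limma adjusted p = 0.767; 0.15 without DekTg library 3). Ccr10 was at 0 in all 8 libraries and was not tested. Ccr1 and Ccr3 are receptors of mature myeloid cells, and Ccr1 was highest in DekTg library 3, where the neutrophil sum was highest; its part in the Ccr1 value was not tested.

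Signalling downstream of these receptors gave 7 of 24 genes above 0 and a median of -0.12, but 13 of 24 and 0.014 with quantile normalization. With scaling to total reads it gave 10 of 24 and -0.03, against a median of 0.083 over all genes tested. The G protein subunit gene Gnb1 averaged 2449 ± 533 in DekTg and 3414 ± 437 in DekCon (log2 fold change -0.49, SE 0.15, limma adjusted p = 0.707). Rgs18, a regulator of G protein signalling in platelets and blood progenitors, averaged 511 ± 146 in DekTg and 772 ± 235 in DekCon (-0.59, SE 0.20, limma adjusted p = 0.711). Both overlapped between groups, and Rgs18 was highest in DekCon library 2. Enzymes that build the glycans of selectin ligands such as PSGL-1 had 2 of 11 members above 0 and the lowest median of the 7 lists, -0.30. The galactosyltransferase gene B4galt1 averaged 555 ± 181 in DekTg and 823 ± 164 in DekCon (-0.60, SE 0.19, limma adjusted p = 0.707), and C1galt1, which starts the core of O-glycans, 79.2 ± 16.0 in DekTg and 141 ± 70.8 in DekCon (-0.71, SE 0.27, limma adjusted p = 0.711; -0.43 without DekCon library 2). Groups did not overlap for 1 of the 11, the sialyltransferase gene St3gal4 (-0.30, lower in DekTg, where 1.88% of all genes tested lay lower without overlap; named after its values were seen).

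Ligands and counter-receptors, most of them made by niche cells, had 14 of 23 above 0 and a median of 0.08. Mif, a cytokine that also acts through CXCR2 and CXCR4, had the highest normalized read count of the list, at 519, 581, 497 and 454 in DekTg, against 591, 812, 634 and 606 in DekCon, with no overlap (log2 fold change -0.36, SE 0.13, limma adjusted p = 0.711). Cxcl2, a CXCR2 ligand, averaged 16.2 ± 5.57 in DekTg and 9.82 ± 2.73 in DekCon, with no overlap (0.66, SE 0.35, limma adjusted p = 0.736). The list of homing and stem cell adhesion had 11 of 21 above 0 and a median of 0.01. The tetraspanin gene Cd9 averaged 480.4 ± 169 in DekTg and 807 ± 431 in DekCon (-0.67, limma adjusted p = 0.711; -0.35 without DekCon library 2), and Cd47, with the highest normalized read count, 1862 ± 273 in DekTg and 2202 ± 289.7 in DekCon (-0.24, limma adjusted p = 0.752). Of all genes tested, 1.88% lay lower in DekTg without overlap, as Mif did, and 2.09% higher, as Cxcl2 did. No list was tested as a set, and the median over all genes tested was 0.0057.

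**Figure D5:**
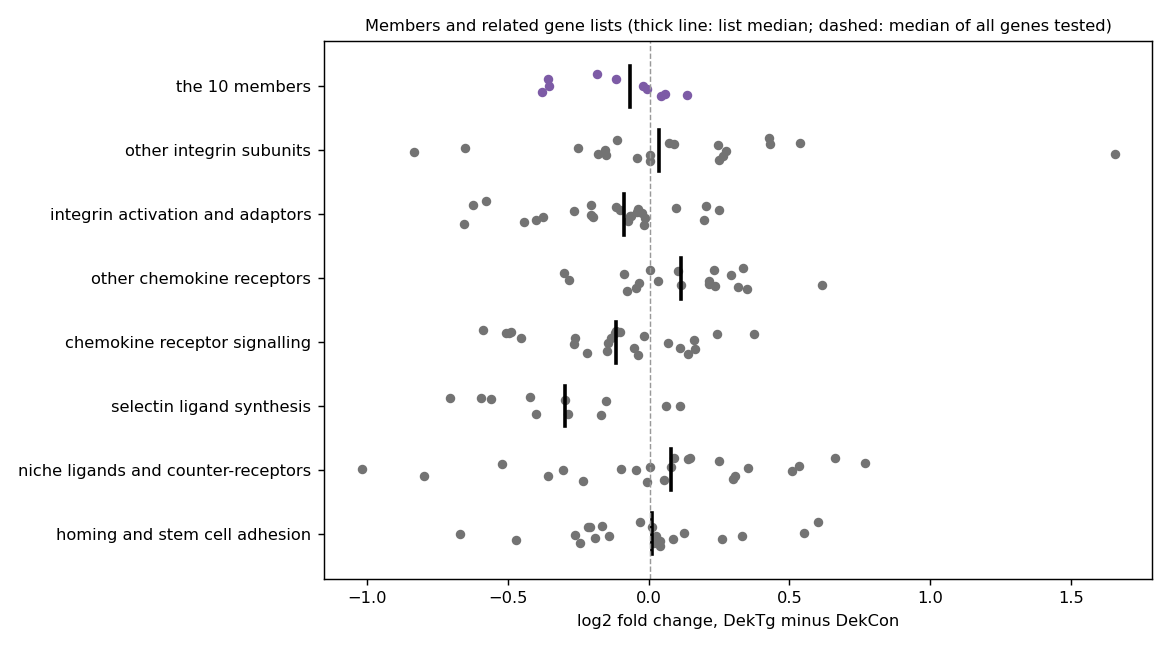
Log2 fold change, DekTg minus DekCon, of the 10 transcripts and of each tested gene of the 7 related lists (points), with each list's median (thick line) and the median of all genes tested (dashed line). The medians run from -0.30 for selectin ligand synthesis to 0.12 for other chemokine receptors, and no point passed the test across all genes.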

How the data were processed

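The table was read as gene counts divided by 1 size factor per library. It is named FPKM, but within each library the deposited signal values were whole multiples of 1 step for 99.994% of 417792 values (tolerance 0.001 reads), and the steps matched median-of-ratios size factors within a relative gap of 4.2e-05. The submitters' processing notes name build mm10 and the tools HTSeq, DESeq2, Cufflinks 2.1.1 and Bowtie 0.12.9; the sources used here do not say which tool did what. The exceptions are 25 values in 6 genes, none of them described here beyond Dek. Control columns are spelled DenCon and were matched to the DekCon labels by number. Per the labels, cDNA was amplified by Geo-seq, a method for small cell numbers. Intervals and read numbers cover only part of the counting error, since amplified reads without molecular identifiers are not independent molecules.

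Genes with a value of 1 or more in 4 or more libraries were tested, 37414 in all. They were fitted on log2(value + 1) by limma 3.58.1 in R 4.3.3 with the trend option, two-sided, no covariates, with Benjamini-Hochberg adjustment across these genes. Differences are on that scale and understate those of low genes. The recovered reads were tested by DESeq2 1.42.0 and by the quasi-likelihood test of edgeR 4.0.16. Other settings changed the pseudocount, the filter, the scaling or a limma option, added a replicate block, or used averages of libraries 1 and 4 or fewer libraries; leaving out both DekTg library 3 and DekCon library 2 was chosen after seeing the data. The test was tested on simulated data. The 10 genes and the lists were chosen with earlier results of these data known. Of each list the 2 tested genes of smallest p (3 for integrins and chemokine receptors) and the one of highest mean are named, except 2 genes that are not reported here. GENCODE M21 (GRCm38, the assembly of mm10) gave positions and exon lengths. Figures were drawn with matplotlib 3.10.9.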

Additional observations from a re-analysis of the deposited data

Results flagged for a closer look

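Library values that stood apart from the other 3 of their group (gap to the nearest, over the group's range, past Dixon's 95% critical value) numbered 9 among 52 groups of 4 checked, where chance flags about 1 in 20. Of the 10 adhesion and chemokine receptor genes, Cxcr2 in DekTg library 3 was at 117, Itgb2 in DekTg library 3 at 271, and Itga6 in DekCon library 2 at 367. Among the related genes, Ccr1 was at 85.4 in DekTg library 3, Itga2b at 724 in DekTg library 2 and at 3859 in DekCon library 2. In DekCon library 2, Fermt3 was at 2699 and Cxcl2, which was low there, at 5.74. Ccr9 was at 162 in DekCon library 3.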

How the results depend on the processing

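In 24 other settings, 0 of the 10 genes and 0 genes of each related list passed the threshold. Itga6, Itga5, Itgb2, Cd44 and Itgal kept their direction in all 24; Itga6 ranged from -0.44 to -0.28 on the log2 scale, with an adjusted p from 0.21 to 0.958. Of 240 pairs of gene and setting, 27 turned in direction, all in Cxcr4, Cxcr2, Itga4, Itgb1 and Selplg. With library weights Cxcr2 was -0.088, Cxcr4 -0.025 and Selplg 0.016. With scaling to total reads Itga4 was 0.066 and Selplg 0.081, and with quantile normalization Itga4 was 0.087, Itgb1 0.036 and Selplg 0.13. Itga4 was 0.014 by edgeR and 0.0088 by DESeq2. With libraries 1 and 4 averaged Itga4 was 0.081 and Selplg 0.025. Without both DekTg library 3 and DekCon library 2, Cxcr2 was -0.39, Itga4 0.019 and Selplg -0.15. Leaving out 1 library gave -0.25 to 0.22 for Cxcr2, -0.055 to 0.17 for Cxcr4, -0.19 to 0.085 for Itga4 and -0.14 to 0.18 for Selplg. The cause of these turns was not tested. Over all genes, 13 passed, against 4 without limma's trend, 8 when the 6 genes with fractional reads were left out, and 13 to 22 on leaving out 1 library, the 22 without DekTg library 2; 15 passed with the replicate block, 9 by edgeR and 14 by DESeq2, which left 3319 genes with an adjusted p. Same-numbered libraries deviated together at correlations of 0.035, 0.007, 0.036 and 0.155, and 2 of 8 libraries matched their own number best, so the numbers were not taken as pairs; with the replicate block 0 of the 10 genes passed, and Itga6 had an adjusted p of 0.527. Cxcr4 and Cxcr2 had the fewest reads of the 10 genes.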
